A study of Mus musculus with 8 samples.

Results

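The NMDA receptor subunit genes, Grin1, Grin2a, Grin2b, Grin2c, Grin2d, Grin3a and Grin3b, were examined in RNAseq of the striatum. They are 7 of the 55032 genes in the count table and were taken as the whole gene family by symbol. No measured value of theirs entered that rule, although the family was chosen with earlier results of these data known. The tissue came from females of the C57BL/6 strain aged 60 postnatal days, 4 of them WT and 4 with the genotype 16p11.2+/-. The 16p11.2+/- mice, whose libraries carry the prefix DF, carry a heterozygous deletion of a segment of chromosome 7, and the labels give no treatment for either group. Each mouse gave its own library, with 15125051 to 16523429 reads counted on genes.

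The NMDA receptor is a glutamate-gated cation channel that opens when glutamate and a coagonist, glycine or D-serine, are bound and depolarization has lifted the magnesium block. Grin1 encodes the obligatory GluN1 subunit, which binds the coagonist. The Grin2 genes encode the GluN2 subunits, which bind glutamate and set the kinetics and magnesium sensitivity of the channel. The Grin3 genes encode the glycine-binding GluN3 subunits, which lower calcium permeability. In striatum, NMDA receptors on medium spiny neurons receive cortical and thalamic glutamate input and take part in synaptic plasticity.

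RefSeq promoters (GRCm38.p6, 250 bases before and 50 after the start site) were at hand for 4 of the 7 genes, namely Grin1, Grin2c, Grin2d and Grin3b. Those of Grin1, Grin2c and Grin2d are shown because they belong to the most abundant subunit gene and to a pair of Grin2 genes that varied in different mice. All 3 lie on the minus strand, at chr2:25319138-25319437 for Grin1, chr11:115267194-115267493 for Grin2c and chr7:45866632-45866931 for Grin2d, and capitals mark GC boxes (GGGCGG) and E-boxes (CACGTG) on either strand.
Grin1: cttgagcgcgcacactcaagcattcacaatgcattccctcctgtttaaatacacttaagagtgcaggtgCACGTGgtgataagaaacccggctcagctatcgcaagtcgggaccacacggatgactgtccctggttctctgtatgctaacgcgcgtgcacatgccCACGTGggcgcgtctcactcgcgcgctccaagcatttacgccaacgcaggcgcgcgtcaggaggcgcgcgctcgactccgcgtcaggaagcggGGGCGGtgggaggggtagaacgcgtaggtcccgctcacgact
Grin2c: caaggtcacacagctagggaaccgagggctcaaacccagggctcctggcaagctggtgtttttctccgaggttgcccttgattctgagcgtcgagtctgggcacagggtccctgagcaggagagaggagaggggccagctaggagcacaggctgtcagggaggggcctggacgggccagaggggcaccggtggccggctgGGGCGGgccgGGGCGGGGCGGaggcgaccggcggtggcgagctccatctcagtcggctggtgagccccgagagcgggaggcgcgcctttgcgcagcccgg
Grin2d: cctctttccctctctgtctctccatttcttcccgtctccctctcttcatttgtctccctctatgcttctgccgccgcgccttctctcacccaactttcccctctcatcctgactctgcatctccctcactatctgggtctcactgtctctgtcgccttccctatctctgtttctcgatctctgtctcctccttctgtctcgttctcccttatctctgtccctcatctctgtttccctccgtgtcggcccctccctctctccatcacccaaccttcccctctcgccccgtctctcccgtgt
The Grin1 promoter held 33 CpG dinucleotides, and 91.4% of the 32851 promoters in the RefSeq set held fewer. It carried 1 GC box and 2 E-boxes, and a GC box was present in 35.7% and an E-box in 7.15% of all promoters. The Grin2c promoter held 22 CpG dinucleotides and 3 GC boxes, of which a pair overlap by a shared base, all before the start site. The Grin2d window lies at the RefSeq start, 11.7 kb inside the gene as annotated by GENCODE, so it is not the start of the counted gene. It held 12 CpG dinucleotides and neither motif, against a median of 7 CpG dinucleotides over all promoters. The 9-letter left part of the REST element (TTCAGCACC), present in 0.371% of promoters, and the cAMP response element (TGACGTCA), present in 1.79%, had no match in these 3 promoters or in that of Grin3b. These matches describe the letters of the windows and not the binding of a factor.

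The deletion was visible in the libraries. Of 11 genes of the deleted segment, all had lower estimates in 16p11.2+/- mice and 8 passed the test, with a median log2 fold change of -0.99. The pieces of tissue differed in makeup, measured as the mean log2 CPM (counts relative to the library's total) of marker genes. All 10 medium spiny neuron markers were detected in every library, but their score was 6.74 in DF-1037 and 6.39 in DF-1062, against 8.06 to 8.81 in the other 6 mice. The score of 8 thalamic markers was 5.86 to 6.89 in WT-1063, DF-1018, DF-1037 and DF-1062 and at most 3.74 in the other 4 mice. DF-1062 also stood apart in 8 of 10 genes of hypothalamic neurons, a list written after the data had been seen. The neuropeptide gene Oxt was at 108 FPKM (a level scaled to gene length and to the reads counted in the library) in DF-1062 and at most 1.60 in the other mice, and Avp was at 59.5 against at most 2.37, whereas Pomc and Agrp were not raised, at 0.367 and 2.03 FPKM. Cortical neuron scores ran from 1.61 in DF-1018 to 5.53 in DF-1037, and the choroid plexus score was 7.36 in WT-1063 and at most 4.61 in the other mice. The oligodendrocyte score was 8.199 to 8.57 in WT and 7.71 to 8.198 in 16p11.2+/- mice, which did not overlap. For genotype differences that move strongly without DF-1037 or DF-1062, the values without these libraries are given as well.

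The subunit genes ranked in the order Grin1, Grin2b, Grin2c, Grin2a, Grin3a, Grin2d and Grin3b by mean FPKM over the 8 mice, a level per gene length. Grin1 averaged 24.7 ± 2.44 FPKM (SD, n = 8), Grin2b 16.9 ± 2.84, Grin2c 10.3 ± 2.02 and Grin2a 8.82 ± 1.88. Grin3a averaged 3.87 ± 2.42 FPKM, Grin2d 2.55 ± 1.47 and Grin3b 0.169 ± 0.0556. The order was firm at both ends, since the range of Grin1 over the mice did not overlap that of Grin2b, nor that of Grin2d the range of Grin3b. In the middle it was not, as Grin2c exceeded Grin2a in 5 of 8 mice, and Grin2a exceeded Grin3a in 7 of 8. Grin2b lay above Grin2c, and Grin3a above Grin2d, in 8 of 8 mice, although the ranges of these neighbors overlapped. These are levels in whole tissue, and fewer cells of a type cannot be told apart from less RNA per cell.

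**Figure D1:**
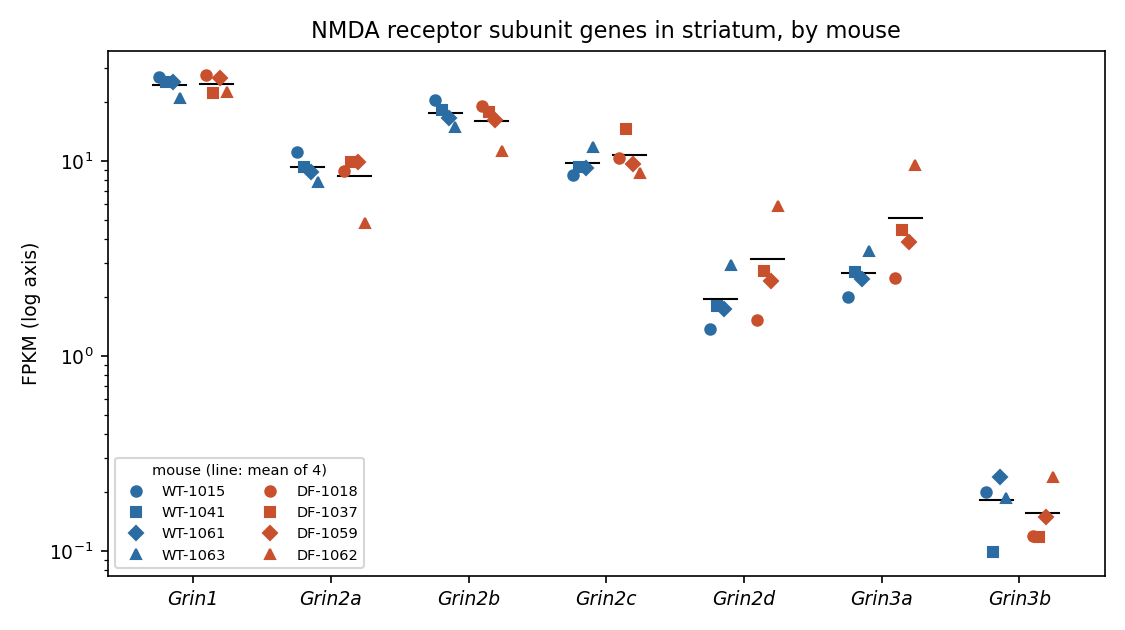
FPKM of the 7 NMDA receptor subunit genes (log axis) in each of the 4 WT mice (blue) and 4 16p11.2+/- mice (red), with black lines at the group means. The genotypes overlap for every gene, and the triangle of DF-1062 lies at the bottom of Grin2a and Grin2b and at the top of Grin2d and Grin3a.

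To find out whether the deletion was accompanied by a shift in subunit expression, the genotypes were compared by edgeR's quasi-likelihood test fitted on the counts of all 18294 genes with enough reads. No NMDA receptor subunit gene passed the threshold of 0.05 on the adjusted p-value. This was 0 of the 6 members tested, in a comparison that called 0.109% of all genes (3 higher and 17 lower). DESeq2 and limma-voom also called 0 members. Only Grin3a had an unadjusted p-value under 0.05, as did 4.32% of all genes. FPKM of the genotypes overlapped for all 6 members, whereas 2.83% of all genes showed no overlap. The median log2 fold change of the members was 0.06, with 3 positive and 3 negative estimates, against -0.01 over all genes tested.

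Grin1 (chr2:25291181-25319187, GRCm38, minus strand) was at 26.9, 25.4, 25.3 and 21.1 FPKM in WT-1015, WT-1041, WT-1061 and WT-1063. In DF-1018, DF-1037, DF-1059 and DF-1062 it was at 27.7, 22.3, 26.5 and 22.6 FPKM. The levels of the obligatory subunit thus interleaved, with means of 24.7 ± 2.50 in WT and 24.8 ± 2.76 in 16p11.2+/- mice (SD, n = 4 each). Its log2 fold change, 16p11.2+/- over WT, was -0.01 (SE 0.12, 95% confidence interval -0.29 to 0.26, edgeR adjusted p = 0.983). It had the narrowest interval of the tested members, running from 0.818-fold to 1.20-fold. The antisense gene Grin1os overlaps 13.5% of the exonic bases of Grin1, and without the strand setting of the counting their reads cannot be told apart there. Grin1os itself had 380 to 565 counts and a log2 fold change of -0.05 (SE 0.18).

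Grin2b (chr6:135713233-136173511, minus strand), the GluN2 gene with the highest level here, encodes a subunit that predominates early in life and gives slow deactivation. It was at 20.5, 18.3, 16.6 and 14.99 FPKM in the 4 WT mice and at 19.1, 17.9, 16.2 and 11.3 FPKM in the 4 16p11.2+/- mice, in the order of mice used for Grin1. A single library, DF-1062, lay under the WT range. The log2 fold change was -0.14 (SE 0.19, interval -0.57 to 0.29, edgeR adjusted p = 0.888), and it was 0.03 (SE 0.13) without DF-1062.

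Grin2a (chr16:9567898-9995560, minus strand) encodes the subunit with faster deactivation whose share increases as synapses mature. It was at 11.1, 9.36, 8.80 and 7.82 FPKM in the WT mice and at 8.89, 9.90, 9.86 and 4.82 FPKM in the 16p11.2+/- mice. As with Grin2b, DF-1062 alone lay below the WT range, at 0.520 times the WT mean, against 0.642 times for Grin2b. The log2 fold change was -0.16 (SE 0.24, interval -0.70 to 0.38, edgeR adjusted p = 0.896), and without DF-1062 it was 0.06 (SE 0.12, interval -0.23 to 0.34).

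Grin2c (chr11:115249169-115267243, minus strand), best known from cerebellar granule cells, astrocytes and thalamus, was at 8.52, 9.30, 9.26 and 11.8 FPKM in the WT mice. In the 16p11.2+/- mice it was at 10.3, 14.5, 9.63 and 8.70 FPKM. The highest levels of the GluN2C gene were in DF-1037 and WT-1063, 1 mouse of each genotype, which also had the highest thalamic marker scores, 6.89 and 6.83. Their endothelial marker scores, 5.63 and 5.42, were the highest as well. Their astrocyte marker scores were 7.12 and 7.10, beside 7.13 in DF-1062. DF-1062, with a thalamic score of 6.28, was in contrast among the lowest for Grin2c. The log2 fold change was 0.13 (SE 0.18, interval -0.26 to 0.53, edgeR adjusted p = 0.886). It was -0.04 without DF-1037 and -0.01 (SE 0.16) with the thalamic score as a covariate. It was instead 0.26 (SE 0.16) without DF-1062, 0.24 (SE 0.18) without WT-1063 and 0.25 (SE 0.20) with the hypothalamic score. The part of tissue makeup in the Grin2c levels was not tested.

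Grin2d (chr7:45831883-45878378, minus strand) encodes a subunit of high glutamate affinity and weak magnesium block, known from diencephalon, brainstem and interneurons. It lies on the chromosome of the deletion but outside the segment. It was at 1.37, 1.80, 1.74 and 2.95 FPKM in the WT mice and at 1.54, 2.72, 2.41 and 5.91 FPKM in the 16p11.2+/- mice. DF-1062 was the only library above the WT range, at 3.01 times the WT mean. The log2 fold change was 0.64 (SE 0.38, interval -0.23 to 1.51, edgeR adjusted p = 0.859). Without DF-1062 it was 0.19 (SE 0.28), and without both DF-1037 and DF-1062 it was 0.01 (SE 0.32). It was instead 0.90 (SE 0.39, interval -0.01 to 1.80) without WT-1063 and 0.86 (SE 0.35, interval 0.05 to 1.68) without DF-1018. Of the exonic bases of Grin2d, 9.66% overlap Gm45441 on the opposite strand.

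Grin3a (chr4:49661611-49845744, minus strand) encodes the GluN3A subunit, which is abundant in young brain and restrains synapse maturation. It was at 2.00, 2.69, 2.48 and 3.46 FPKM in the WT mice and at 2.51, 4.44, 3.85 and 9.52 FPKM in the 16p11.2+/- mice. A total of 3 16p11.2+/- mice lay above the WT range and DF-1018 lay inside it. Its log2 fold change of 0.90 (SE 0.35, interval 0.10 to 1.69) was the largest of the family in size. The unadjusted edgeR p was 0.0320 and the adjusted p 0.859, so the difference did not pass the threshold. An exact two-sided permutation test of FPKM gave p = 0.0857, where the smallest p that 4 against 4 mice allow is 0.0286. DF-1062 was at 3.59 times the WT mean. Without it the log2 fold change of Grin3a was 0.45 (SE 0.22, interval -0.05 to 0.95), and without both DF-1037 and DF-1062 it was 0.27 (SE 0.23, interval -0.28 to 0.81). It was instead 1.04 (SE 0.39, interval 0.15 to 1.94) without WT-1063 and 1.12 (SE 0.31, interval 0.41 to 1.83) without DF-1018.

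Grin3b (chr10:79970715-79977190, plus strand), which encodes the GluN3B subunit of motor neurons, was close to the limit of detection. It had 5 to 13 counts per library and was left out of the edgeR test by the filter on low counts. With no filter its log2 fold change was -0.24 (SE 0.42, edgeR adjusted p = 0.906). FPKM was 0.201, 0.0990, 0.241 and 0.188 in the WT mice and 0.119, 0.119, 0.149 and 0.239 in the 16p11.2+/- mice. The genotypes overlapped over nearly the whole range (exact two-sided permutation p = 0.514). The 95% interval of the fit with no filter ran from -1.17 to 0.68, so differences inside it were not resolved at this depth. In addition, Tmem259 on the opposite strand overlaps 32.1% of the exonic bases of Grin3b.

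**Figure D2:**
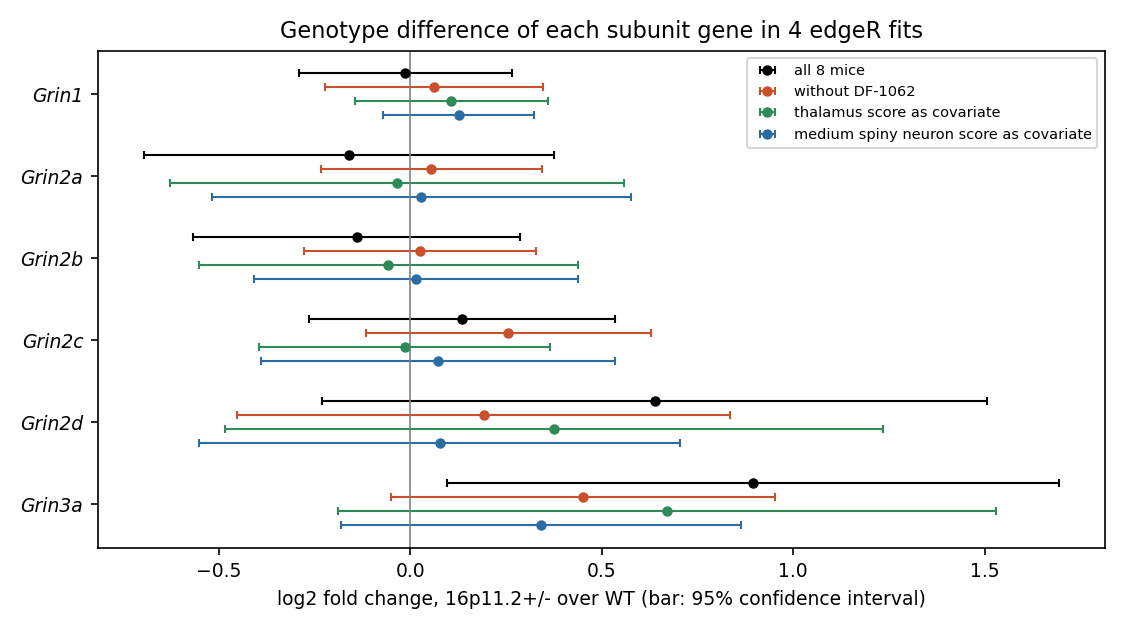
Log2 fold change, 16p11.2+/- over WT, of the 6 tested subunit genes with 95% confidence intervals, in the fit on all 8 mice (black), without DF-1062 (red), and with the thalamic (green) or medium spiny neuron (blue) marker score as a covariate. Among the fits drawn, the interval of Grin3a leaves out 0 only in the fit on all 8 mice without a covariate, where its estimate is 0.90. It also leaves out 0 in fits not drawn, those without WT-1063, DF-1018, DF-1037 or DF-1059. Without WT-1015, WT-1041 or WT-1061 it includes 0.

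The makeup of the receptor gene family was then compared within each mouse, which does not depend on library size. Grin1 took 37.3 ± 2.38% of the summed FPKM of the 7 genes in WT and 36.2 ± 3.86% in 16p11.2+/- mice (SD, n = 4 each), and Grin2b took 26.5 ± 2.12% and 23.4 ± 3.97%. Grin2a took 14.0 ± 1.32% and 12.1 ± 3.07%, and Grin2c 14.8 ± 2.92% and 15.7 ± 3.05%. The remaining share was small, with 3.02 ± 1.20% and 4.71 ± 3.18% for Grin2d, 4.06 ± 1.12% and 7.61 ± 5.11% for Grin3a, and at most 0.378% in any mouse for Grin3b. The SD was larger in 16p11.2+/- mice for each of the 7 shares, and this difference in spread was not tested. DF-1062 gave 15.1% to Grin3a and 9.37% to Grin2d, against at most 6.17% and 4.73% in the other mice. Without DF-1062 the 16p11.2+/- means were 5.12% for Grin3a and 3.16% for Grin2d. The summed FPKM of the family was 66.1 ± 3.53 in WT and 68.4 ± 3.83 in 16p11.2+/- mice, so that the family total differed by less than 1 SD.

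**Figure D3:**
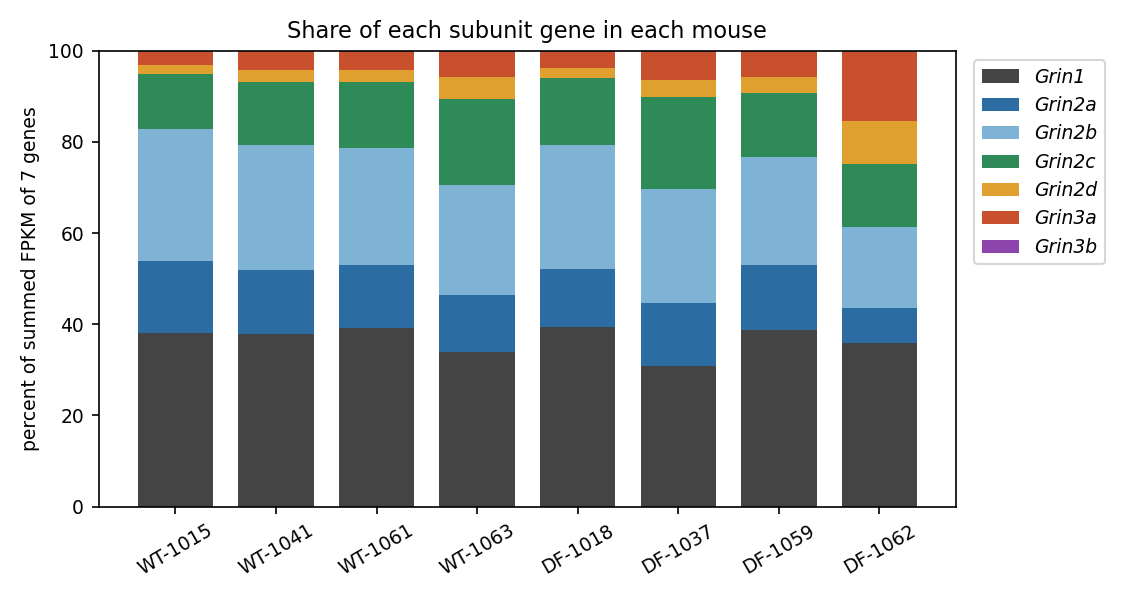
Share of each subunit gene in the summed FPKM of the 7 NMDA receptor genes (percent, stacked bars, 1 bar per mouse). DF-1062 has the smallest Grin2a and Grin2b segments and the largest Grin2d and Grin3a segments, and DF-1037 has the largest Grin2c segment, 20.2%.

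The ratio of Grin2a to Grin2b, often used as an index of the GluN2A to GluN2B switch, was 0.542, 0.511, 0.530 and 0.522 in the WT mice. In the 16p11.2+/- mice it was 0.465, 0.552, 0.610 and 0.426. The WT values thus lay inside a narrow band (SD 0.0129) and the 16p11.2+/- values lay on both sides of it (SD 0.0832). The means, 0.526 and 0.514, differed by less than the spread (log2 difference -0.05, exact two-sided permutation p = 0.714). Among 7 ratios compared, none passed the test, and the Benjamini-Hochberg adjusted permutation p-values lay between 0.667 and 0.714. The ratio of Grin3a to Grin1 had the largest log2 difference, 0.78 (exact permutation p = 0.200), with 0.0744 to 0.164 in WT and 0.0904 to 0.421 in 16p11.2+/- mice. Without DF-1062 this difference was 0.38, and that of Grin2d to Grin1 was 0.15 in place of 0.55. The sum of the 4 Grin2 genes over Grin1 was 1.57 ± 0.148 in WT and 1.56 ± 0.310 in 16p11.2+/- mice.

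Grin2d was also compared with Grin3a. The ratio of Grin2d to Grin3a was 0.686, 0.672, 0.703 and 0.852 in the WT mice and 0.613, 0.613, 0.627 and 0.621 in the 16p11.2+/- mice, including DF-1062. This pair was singled out after its values were seen, and no test was made. It was the only 1 of 21 pairs of members whose ratios did not overlap between genotypes. Leaving out pairs with the untested Grin3b, this was 1 of 15 pairs, and 2.79% of all pairs of tested genes likewise showed no overlap.

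Across the 8 mice, with log2 CPM centered within genotype, Grin2d and Grin3a varied together (Pearson's r = 0.986, Spearman's rho = 0.976), and r was 0.973 over the 7 mice without DF-1062. Grin2a and Grin2b also varied together (r = 0.934, rho = 0.714), with r = 0.742 without DF-1062. Grin2b varied opposite to Grin2d (r = -0.944), and so did Grin1 (r = -0.907). Grin2c followed a course of its own, with r between -0.323 and 0.408 to the other 5 tested members. Without DF-1062, however, its r was -0.909 to Grin1 and 0.714 to Grin2d. These correlations describe libraries that share their tissue makeup, and they carry no p-value. Among all tested genes, the 3 most like Grin1 were Ash1l (r = 0.995), Tsr1 and Dock3, and those most like Grin2a were Rasl11b (r = 0.990), Dnajc14 and Gm45619. Igfbp4 (r = 0.991), Mei1 and Ccnt2 were most like Grin2b, and Foxq1 (r = 0.990), Clec5a and Pecam1 most like Grin2c. Kcnj16 (r = 0.996), Rsl24d1 and Itfg2 were most like Grin2d, and A830005F24Rik (r = 0.994), Cd83 and Grin2d itself most like Grin3a. Each of these was picked as the highest r among all tested genes over 8 mice, so a high r is partly due to the picking. Without DF-1062, r fell from 0.983 to 0.884 for Dnajc14 and from 0.984 to 0.944 for Ccnt2. For the other genes listed it was at least 0.960.

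The subunit levels were set beside the marker scores of each piece of tissue. Per unit of the medium spiny neuron score, with genotype in the model, log2 expression of Grin2d had a slope of -0.57 (SE 0.15) and that of Grin3a a slope of -0.55 (SE 0.13). The slopes were positive for Grin1 (0.18, SE 0.05), Grin2b (0.20, SE 0.11) and Grin2a (0.25, SE 0.14), and -0.08 (SE 0.12) for Grin2c. Without DF-1062 these slopes were -0.35 (SE 0.19) for Grin2d, -0.31 (SE 0.13) for Grin3a and -0.28 (SE 0.07) for Grin2c. They were 0.19 (SE 0.07) for Grin1, 0.0227 (SE 0.10) for Grin2a and 0.0464 (SE 0.10) for Grin2b. Without both DF-1037 and DF-1062 they were -1.06 (SE 0.45) for Grin2d, -0.76 (SE 0.34) for Grin3a and -0.38 (SE 0.21) for Grin2c. In that fit they were 0.37 (SE 0.17) for Grin1, 0.36 (SE 0.25) for Grin2a and 0.34 (SE 0.27) for Grin2b. The sign of each slope was thus kept in each fit while the size varied. DF-1037 and DF-1062 differed for Grin2a, at 9.90 and 4.82 FPKM, with low medium spiny neuron scores in both. On the thalamic score, Grin1 had a slope of -0.09 (SE 0.04), Grin2c of 0.12 (SE 0.06) and Grin2d of 0.23 (SE 0.13). For Grin2c it was 0.13 (SE 0.03) without DF-1062 and 0.10 (SE 0.03) without both libraries. On the hypothalamic score, the slopes were negative for Grin2a (-0.33, SE 0.05) and Grin2b (-0.25, SE 0.04) and positive for Grin2d (0.48, SE 0.08) and Grin3a (0.46, SE 0.06). Without DF-1062 they were -0.23 (SE 0.14), -0.37 (SE 0.09), 0.82 (SE 0.19) and 0.65 (SE 0.15) in the same order. Among those mice, however, the score ran only from 0.17 in WT-1015 to 1.69 in DF-1059, near the floor. Of its 10 genes, 3 had no counts in WT-1015, 2 in WT-1041 and 1 in DF-1018. With the medium spiny neuron score as a covariate, the log2 fold change between genotypes was 0.34 (SE 0.23) for Grin3a and 0.08 (SE 0.27) for Grin2d. With the hypothalamic score, which was 4.39 in DF-1062 and at most 1.69 in the other mice, it was 0.18 (SE 0.14) for Grin3a and -0.10 (SE 0.19) for Grin2d. The part of tissue makeup in the subunit levels was not tested.

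**Figure D4:**
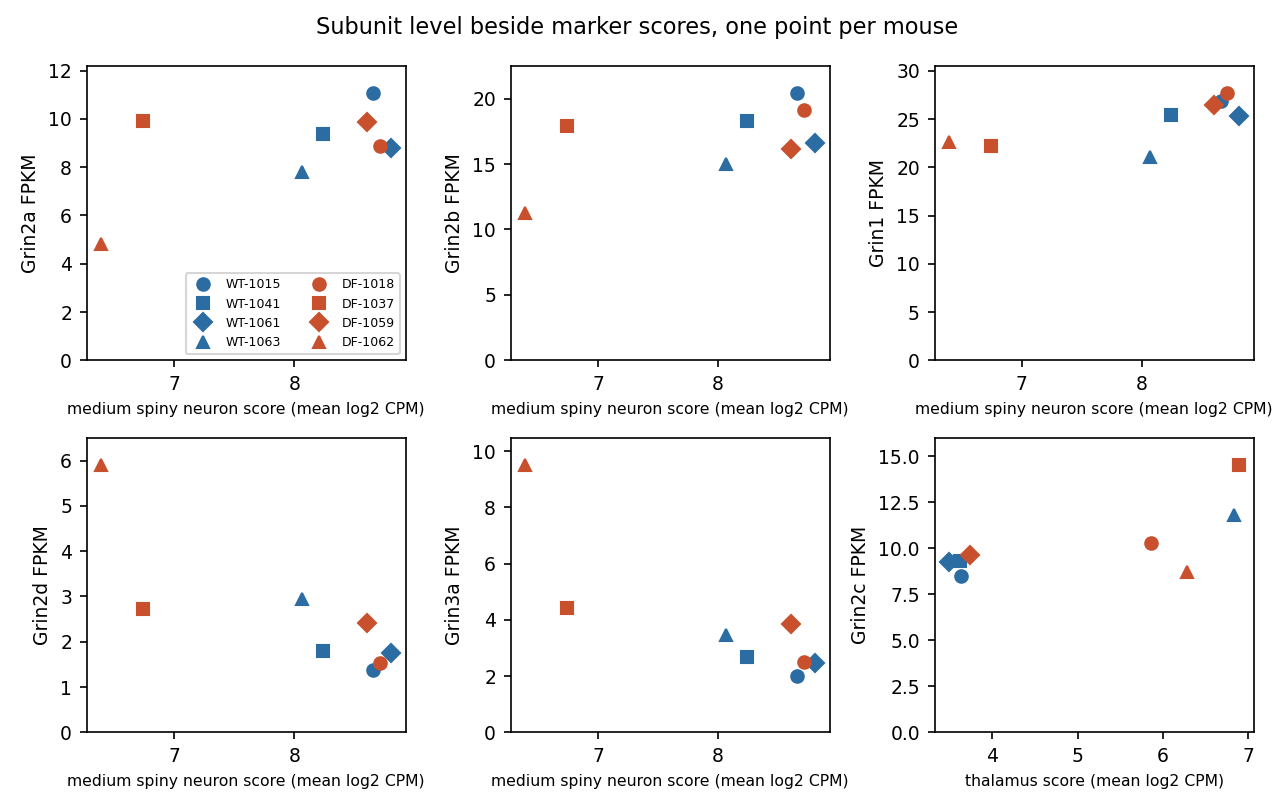
FPKM of Grin2a, Grin2b, Grin1, Grin2d and Grin3a against the medium spiny neuron marker score, and of Grin2c against the thalamic marker score (mean log2 CPM), 1 point per mouse, WT in blue and 16p11.2+/- in red. DF-1037 and DF-1062 lie apart at scores of 6.74 and 6.39, and DF-1062 is extreme for Grin2a, Grin2b, Grin2d and Grin3a.

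The other ionotropic glutamate receptors gave a similar count, in the comparison that called 0.109% of all genes. None of the 4 AMPA receptor genes Gria1, Gria2, Gria3 and Gria4 passed the test, and their log2 fold changes were -0.07 (SE 0.20), -0.20 (SE 0.20), -0.11 (SE 0.18) and 0.33 (SE 0.15). None of the 5 kainate receptor genes passed it either, with a median of 0.04. Grik1, named after its values were seen, had a log2 fold change of 0.69 (SE 0.29, edgeR adjusted p = 0.859). Its unadjusted edgeR p was 0.0432, and 4.32% of all genes tested had one under 0.05. Grik1 was at 1.43 to 1.92 FPKM in WT and 1.40 to 4.58 FPKM in 16p11.2+/- mice (exact two-sided permutation p = 0.143). The summed FPKM of the 7 NMDA receptor genes over that of the 4 AMPA receptor genes was 0.344 ± 0.0353 in WT and 0.372 ± 0.0624 in 16p11.2+/- mice, with the highest value, 0.464, in DF-1037.

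Genes that supply, anchor and modify the NMDA receptor were examined as a list of 44, of which 43 had enough counts. Dao, the D-amino acid oxidase that degrades D-serine, had 0 to 5 counts and was not tested. None of the 43 passed the adjusted threshold in edgeR, which 0.109% of all genes tested passed. None had an unadjusted p-value under 0.05, against 4.32% of all genes tested. The median log2 fold change of the list was -0.09, with 18 positive and 25 negative estimates. By role, the median was 0.16 for 5 genes of coagonist supply, -0.13 for 6 of glutamate release and uptake, and -0.09 for 12 of scaffold and trafficking. It was -0.14 for 14 kinases, phosphatases and anchors and 0.30 for 6 downstream and auxiliary genes.

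The glycine transporter gene Slc6a9, whose product sets glycine around the receptor, was at 6.39 to 10.1 FPKM in WT and 9.21 to 13.9 FPKM in 16p11.2+/- mice, with a log2 fold change of 0.37 (SE 0.17). Slc1a4, which encodes a transporter of neutral amino acids including serine, had 0.35 (SE 0.18). Both were highest in DF-1062, at 13.9 and 21.4 FPKM, and without DF-1037 and DF-1062 the log2 fold changes were 0.15 and -0.00502. Among the vesicular glutamate transporters, Slc17a6 of subcortical neurons had a log2 fold change of 1.20 with an SE of 1.16, since it ranged from 1.58 to 44.7 FPKM within WT alone. It was 3.90 without WT-1063, 0.76 without DF-1062 and -0.16 without both DF-1037 and DF-1062. The cortical Slc17a7 likewise varied widely, from 7.83 FPKM in DF-1062 to 106 FPKM in DF-1037, with a log2 fold change of -0.21 (SE 0.79) that was -1.57 without DF-1037 and 0.14 without DF-1062. Both transporter genes are also on the marker lists of thalamus and cortex.

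Of the scaffold genes, Dlg1, which encodes SAP97, had a log2 fold change of -0.29 (SE 0.20), and Apba1, which encodes an adaptor of receptor transport, had 0.37 (SE 0.20). Without both DF-1037 and DF-1062 they were -0.00393 and -0.0204, and without DF-1062 alone -0.13 and 0.28. The calcineurin gene Ppp3ca and the anchoring protein gene Akap5 had -0.41 (SE 0.38) and -0.34 (SE 0.44). Both were low in DF-1037 and DF-1062, with Ppp3ca at 116 and 64.9 FPKM against 151 to 238 FPKM in the other mice. Without these 2 libraries their log2 fold changes were 0.10 and 0.29. The exchange factor gene Rasgrf2 and the receptor tyrosine kinase gene Ephb2 had 0.75 (SE 0.37) and 0.45 (SE 0.25), and both were highest in DF-1062, at 19.5 and 1.55 FPKM. Without DF-1062 their log2 fold changes were 0.40 and 0.21.

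**Figure D5:**
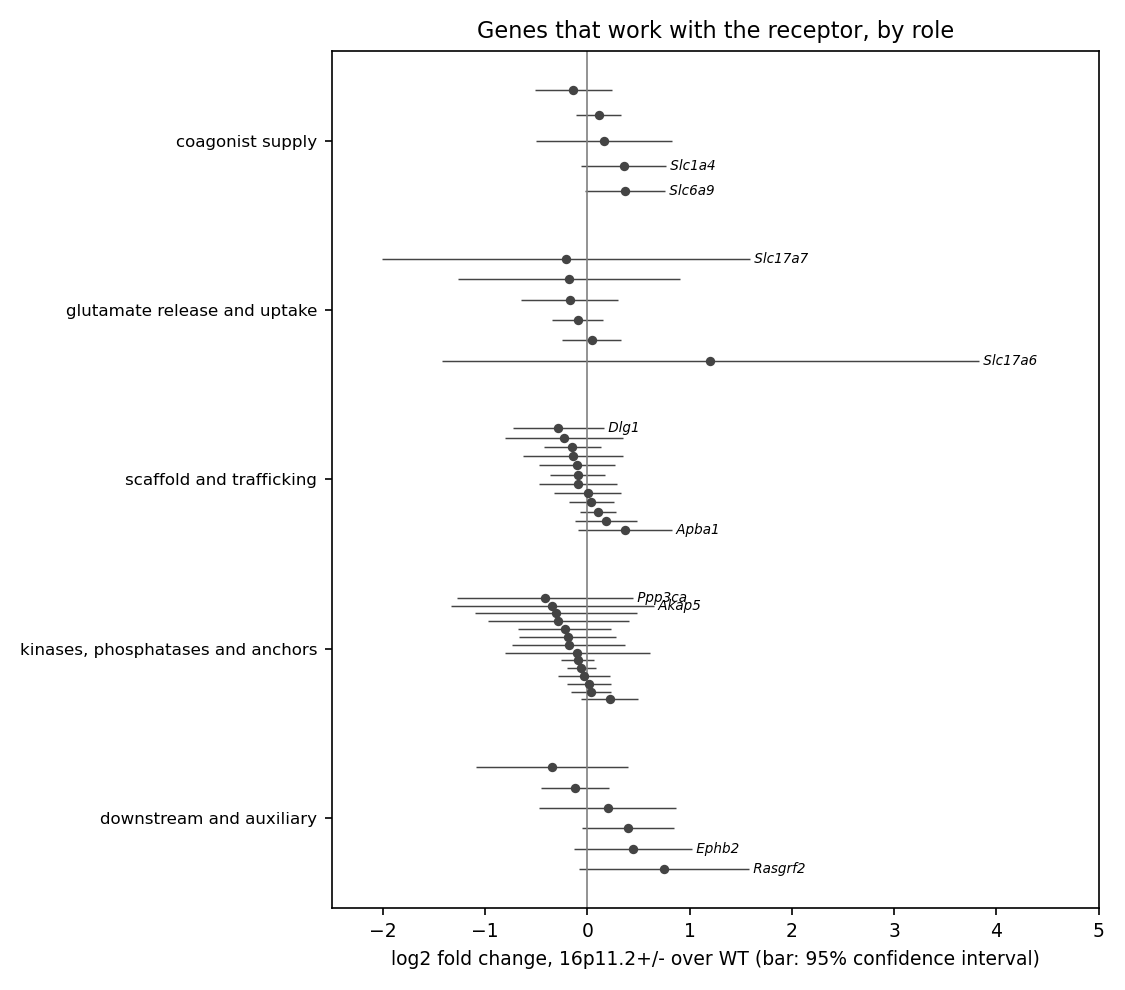
Log2 fold change, 16p11.2+/- over WT, with 95% confidence interval for the 43 tested genes that work with the NMDA receptor, grouped by role, with the named genes labelled. Every interval includes 0, and the widest is that of Slc17a6, with an estimate of 1.20.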

How the data were processed

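RNAseq was run on the striatum of each of 8 mice. Per the paper's methods, the authors mapped reads with Hisat2 and deposited gene counts from Htseq-count together with FPKM values. The submitters' processing notes name Bowtie 0.12.2 with mm8 and mm9 instead. The gene lengths implied by FPKM equalled GENCODE M21 (GRCm38) within 0.5% for 95.7% of 14636 genes, so positions are given in that build. The strand setting is not given in the sources used here. The deposited comparison of the authors and an FPKM summary were not used.

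The genotypes were compared on the counts by edgeR 4.0.16 (R 4.3.3, TMM, filterByExpr with a minimum count of 10 and total of 15, quasi-likelihood test, Benjamini-Hochberg adjustment over all genes). The standard error came from the log2 fold change and F. Marker scores used a prior count of 2. Ratios of FPKM were compared over the 70 assignments of the 8 mice. Alternatives were DESeq2 1.42.0, limma 3.58.1, other filters and scaling, score covariates, and mice left out. The edgeR fit without covariates was first tested on simulated counts with known changes. The simulated counts had the same dispersion for every gene and no differences in tissue makeup. That check therefore does not cover libraries as uneven as these.

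All 7 members are named. Partner genes named are the 2 of each role with the largest log2 fold change in size, and any with an unadjusted p under 0.05. The members and lists were chosen with earlier results of these data known. The hypothalamic list, its covariate, the omission of both DF-1037 and DF-1062, the slopes without these libraries, and the Grin2d to Grin3a ratio were chosen after seeing the data.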

Additional observations from a re-analysis of the deposited data

Results flagged for a closer look

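Among 70 groups of 4 mice examined, 3 held a library whose gap to its nearest neighbor exceeded Dixon's 95% critical share of the group's range, which chance passes in about 1 of 20 groups. In 16p11.2+/- mice, the ratio of Grin2c to Grin1 was 0.653 in DF-1037 and 0.363 to 0.385 in the other 3 mice, with a gap share of 0.926. The share of Grin2c in the summed FPKM of the family was 20.2% in DF-1037 and 13.8% to 14.7% in the others, with a gap share of 0.863, and it rests on the same Grin2c value. In WT mice, Slc17a6, a partner gene and thalamic marker, was at 44.7 FPKM in WT-1063 and 1.58 to 2.37 FPKM in the others, with a gap share of 0.982.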

How the results depend on the processing

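No paired analysis was made, because each mouse has its own number and these numbers show no pairing or litter. No subunit gene and no partner gene passed the threshold under any alternative run. The log2 fold change of Grin3a was positive in 21 of 21 alternatives, from 0.18 to 1.12, with adjusted p-values of at least 0.571. The count of all genes past the threshold was 20, against 31 with DESeq2, 11 without both DF-1037 and DF-1062, 8 with the hypothalamic score, and 8 to 18 with 1 mouse left out. The genotype difference (16p11.2+/- minus WT) in the log2 ratio of Grin2a to Grin2b was 0.21 in the mice of low thalamic score (3 WT, 1 16p11.2+/-), a value with no test. With 1 mouse left out, this difference ranged from -0.137 to 0.0355, that of Grin2a to Grin1 from -0.348 to 0.00609, that of Grin3a to Grin1 from 0.379 to 1.12, and that of Grin2c to Grin1 from -0.0730 to 0.300. Those of Grin2a to Grin2b, Grin2a to Grin1 and Grin2c to Grin1 were the ones turning sign without DF-1062, DF-1062 and DF-1037 in that order.

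Other estimates that turned sign, none of them past the threshold, were those of Grin1 with library totals (0.00599) and with limma on log2 FPKM (0.00498 with a pseudocount of 1 and 0.00515 with 0.1). With the thalamic score they were Grin1 (0.11) and Grin2c (-0.0141), and with the medium spiny neuron score Grin1 (0.13), Grin2a (0.0287), Grin2b (0.0139), Ppp3ca (0.0202) and Akap5 (0.12). With the hypothalamic score they were Grin1 (0.13), Grin2a (0.22), Grin2b (0.16), Grin2d (-0.0977), Slc17a7 (0.72), Ppp3ca (0.10) and Akap5 (0.13). Without both DF-1037 and DF-1062 they were Grin1 (0.14), Grin2a (0.0225), Grin2b (0.0118), Slc1a4 (-0.00502), Slc17a6 (-0.16), Apba1 (-0.0204), Ppp3ca (0.10), Akap5 (0.29) and Ephb2 (-0.0435). With 1 mouse left out, the ranges were -0.0840 to 0.0622 for Grin1, -0.249 to 0.0553 for Grin2a, -0.240 to 0.0261 for Grin2b, -0.0421 to 0.256 for Grin2c and -1.57 to 0.14 for Slc17a7. The cause of these turns was not tested. Grin3b, with 5 to 13 counts per library, was left out by the filter in the fit on all mice, and its 95% interval with no filter ran from -1.17 to 0.68.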
